A study of Mus musculus with 4 samples.

Results

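AMPA receptors are the glutamate-gated channels that carry most fast excitatory transmission in the hippocampus. The mRNAs described here are those of the 4 AMPA receptor subunits (Gria1, Gria2, Gria3 and Gria4), of 3 PDZ proteins that bind subunit tails (Grip1, Grip2 and Pick1), and of 3 transmembrane AMPA receptor regulatory proteins, or TARPs (Cacng2, Cacng3 and Cacng8). They were taken by symbol from a table of 37411 gene rows. All 10 had a row and all 10 passed the low-count filter, among 14357 genes tested.

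The study asked which RNAs are associated with KIF5C, a neuronal heavy chain of the motor kinesin-1. RNA came down with the kinesin antibody MAB 6414 (Millipore) in the KIF5C libraries, and with a mouse IgG control antibody (Thermofischer) in the IgG libraries, in both cases from lysates of the hippocampus of adult mice aged 7 to 9 weeks. The labels name no strain, genotype or treatment for either group. Each co-immunoprecipitation used 2 mice, and 6 co-immunoprecipitations were pooled into 2 samples, so a library is a pool of animals. There are 2 libraries for each antibody. Whether the 2 libraries of an antibody stem from different animals is not stated, and the p-values therefore take in only their spread, which may be technical. No library of input RNA was among those analysed here. A higher level therefore means more in the KIF5C than in the IgG precipitate.

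A functional AMPA receptor is a tetramer of the proteins GluA1 to GluA4, which the Gria genes encode. GRIP proteins and PICK1 bind the ends of GluA2 and GluA3 through PDZ domains, and TARPs bind the receptor in the membrane, slow its closing and tie it to the scaffold PSD-95. GRIP1 also binds kinesin-1 heavy chains and has been described to steer the motor towards dendrites. That link is between proteins. The values given here are of mRNAs, and they say nothing of the amount of any protein in the precipitates.

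The ends of the coding sequences, which encode the tails of the proteins, were compared base by base in 1 transcript per gene. The last 30 coding bases before the stop codon are printed for the subunits and TARPs from GENCODE mouse release 21 transcripts (GRCm38), 5′ to 3′, with the last 12 bases in capitals. Those bases encode the end of the tail, the place where PDZ domains bind. Whether such a domain holds each of the ends printed was not tested.
Gria1 (chr11:57327614-57327643, plus strand): tcagggatgcccttgggaGCCACAGGATTG
Gria2 (chr3:80689109-80689138, minus strand): aacgtatatggcatcgagAGTGTTAAAATT
Gria3 (chrX:41672432-41672461, plus strand): aacgtgtatggaacagaaAGTGTTAAGATC
Gria4 (chr9:4420155-4420184, minus strand): ggattggctgtcattgcaTCGGACCTACCA
Cacng2 (chr15:77995152-77995181, minus strand): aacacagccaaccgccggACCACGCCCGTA
Cacng3 (chr7:122768814-122768843, plus strand): aatccggccaacagacgtACCACGCCTGTC
Cacng8 (chr7:3415573-3415602, plus strand): aacacgctcaacaggaaaACCACGCCCGTG
Gria2 and Gria3 had the same base at 10 of the last 12 positions, whereas Gria1 shared 2 of the 12 with Gria2 and 1 with Gria3. The Gria4 transcript shown, the principal one of its annotation, shared 2 of the 12 with Gria2. Gria4 has 4 annotated protein-coding transcripts, and the ends of the others were not compared. The 3 TARP ends shared 10 or 11 of the 12 with each other.

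The libraries held 15172432 (KIF5C 1) and 14623843 (KIF5C 2) counts with the KIF5C antibody, against 12543510 (IgG 1) and 11059266 (IgG 2) with IgG. The mitochondrial 16S rRNA mt-Rnr2 took 11.3% and 31.9% of the counts with KIF5C, against 7.36% and 32.2% with IgG, and so a larger part in the libraries numbered 2. The members together had 30126 and 16414 counts with KIF5C, against 20371 and 9417 with IgG. Markers of hippocampal excitatory neurons were present, with none of 10 at 0 in any library. Their summed level was 2639 and 2628 CPM (counts scaled to a library of 1000000) with KIF5C, against 2370 and 2006 CPM with IgG. Of these 10, 1 (Spink8) was called, lower (edgeR, adjusted p of 0.05, the test described below). Of all genes tested, 3.33% were called higher and 0.745% lower. Of the 10 markers, 7 had a positive log2 fold change (KIF5C over IgG) and 3 a negative one (median 0.215), while 47.6% of all genes tested were positive. DESeq2 called 1 of the 10 higher and 1 lower. It called 5.84% of the genes with an adjusted p as higher, and 150 genes as lower. Summed markers of oligodendrocytes were at 1845 and 1948 CPM with KIF5C, against 2118 and 2075 CPM with IgG, and those of the choroid plexus at 344.8 and 268 CPM with KIF5C, against 583 and 356.5 CPM with IgG. In each of these lists 1 of 10 was called, lower (Mog and Ttr), where 0.745% of all genes tested were, and none was at 0 in any library. Of the oligodendrocyte markers 6 had a positive and 4 a negative log2 fold change (median 0.194), so the lower sum does not describe most of that list. Of the choroid plexus markers 3 were positive and 7 negative (median -0.193). The sums of the interneuron, astrocyte, microglia and endothelial lists overlapped between the antibodies, with no member called or at 0. The part of any of these lists in the values below was not tested. In such precipitates the cells in the lysate, the RNA per cell and the RNA that each antibody brings down cannot be told apart.

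None of the 10 members passed the test between the antibodies. With edgeR's quasi-likelihood test and Benjamini-Hochberg adjustment over all genes, at an adjusted p of 0.05, 0 of 10 were called. Of all genes tested, 4.07% were called, 3.33% higher and 0.745% lower in KIF5C, so that 81.7% of the calls were higher. With reads scaled by library totals instead, 1 gene was called higher and 4 lower (20.0% higher), again with 0 of 10 members. At an unadjusted p under 0.05 there were 2, Gria1 and Cacng3, both higher in KIF5C, and 0 lower, while 12.4% of all genes lay there as higher and 9.06% as lower. DESeq2 called 1 of 9 (Gria1, higher; it gave Grip2 no adjusted p), where it called 5.84% of the genes with an adjusted p as higher, and limma-voom called 0 of 10, against 4.55%. The median log2 fold change of the members, KIF5C over IgG, was 0.19, against -0.0271 for all genes tested. The scaled levels of 7 members did not overlap between the antibodies, 5 with KIF5C above and 2 with KIF5C below. Among all genes tested 26.3% and 26.2% did so.

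**Figure D1:**
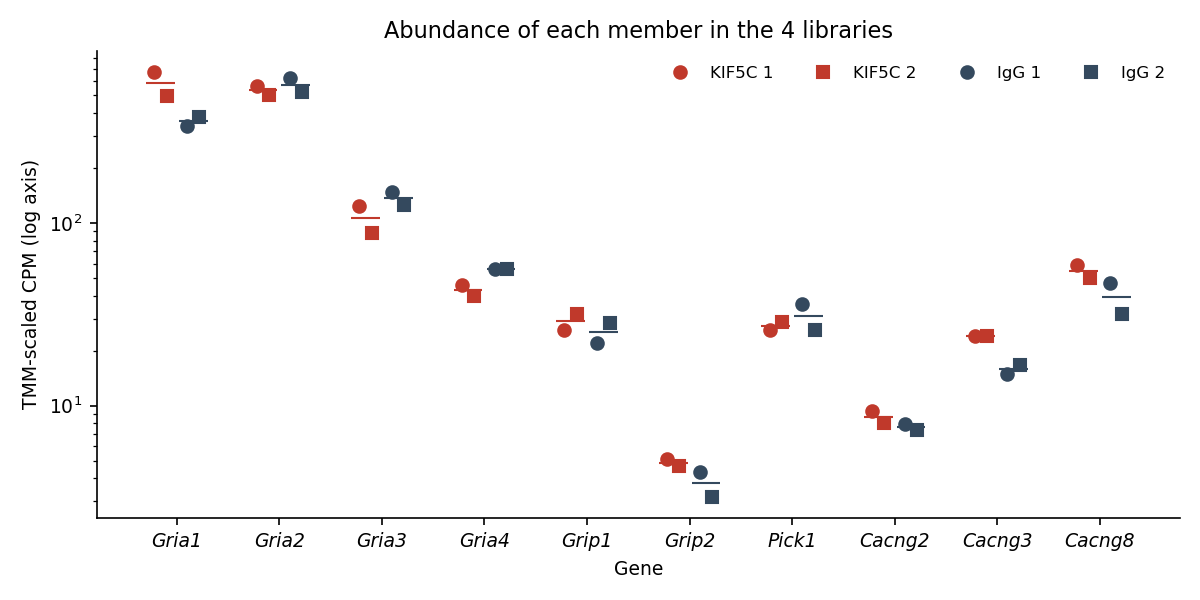
Scaled abundance of the 10 members, as CPM after TMM scaling, in each of the 4 libraries on a log axis; circles are libraries numbered 1, squares those numbered 2, and the short lines are the means of 2 libraries. Both KIF5C libraries (red) lay above both IgG libraries (blue-grey) for Gria1, Grip2, Cacng2, Cacng3 and Cacng8, and below them for Gria3 and Gria4. Gria2, Grip1 and Pick1 overlapped. Among all genes tested, 26.3% lay above and 26.2% below in this way.

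Gria1 and Gria2 were the most abundant of the group. Gria1 (chromosome 11, 57011387 to 57330244) encodes GluA1, the subunit whose delivery to synapses is a step of long-term potentiation. It had 13023 and 6363 reads with KIF5C, against 5325 and 3001 with IgG. After TMM scaling, which is used for all levels given as CPM, that was 672.1 and 494.6 CPM with KIF5C, against 340.8 and 381.7 CPM with IgG. Both KIF5C libraries lay above both IgG libraries, and the difference was 1.61-fold, a log2 fold change of 0.69 (standard error 0.27, 95% interval 0.12 to 1.26). Its adjusted p was 0.148 with edgeR, 0.0401 with DESeq2 and 0.105 with limma-voom. With the replicate number as a further term, edgeR gave a log2 fold change of 0.68 (adjusted p = 0.0322). When reads were also corrected for GC content and length, that fit gave 0.51 (adjusted p = 0.092). Whether the number marks a batch is not stated. In the authors' deposited table, whose log2 fold changes are IgG over KIF5C (negative where KIF5C is higher), Gria1 stood at -0.64 (SE 0.20, adjusted p = 0.0308), the 1 member past 0.05 there, where 5.82% of the genes with an adjusted p were past it and higher in KIF5C. Leaving out KIF5C replicate 1 gave Gria1 a log2 fold change of 0.46, and leaving out KIF5C replicate 2 gave 0.91. Of all genes tested, 9.02% had a higher fold change than Gria1.

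Gria2 (chromosome 3, 80681450 to 80802835) encodes GluA2, the subunit that keeps calcium out of the channel once its transcript has been edited. It had 563.6 and 505.3 CPM with KIF5C, against 626.7 and 520.4 CPM with IgG. These ranges overlapped. The log2 fold change was -0.10 (SE 0.27, adjusted p = 0.866 with edgeR), and its 95% interval of -0.66 to 0.46 holds changes of either sign. The direction turned when reads were corrected for GC content and length (0.15), and without IgG replicate 1 (0.04). With reads scaled by library totals the value was 0.02. The median of all genes was then 0.11, and relative to it Gria2 still lay lower, at -0.0936.

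Gria3 (chromosome X, 41400854 to 41678601) encodes GluA3, which pairs with GluA2 in receptors of adult hippocampal neurons. It measured 123.7 and 88.62 CPM with KIF5C, against 148.1 and 126.4 CPM with IgG. Gria4 (chromosome 9, 4417896 to 4796234) encodes GluA4, known in the hippocampus from interneurons and early development. It measured 45.73 and 39.8 CPM with KIF5C, against 56.13 and 55.71 CPM with IgG. Both genes had both KIF5C libraries below both IgG libraries. Their log2 fold changes were -0.37 (SE 0.23, adjusted p = 0.38) for Gria3 and -0.39 (SE 0.21, adjusted p = 0.301) for Gria4 with edgeR, so neither passed. Leaving out KIF5C replicate 1 put Gria3 at -0.62, and leaving out KIF5C replicate 2 put it at -0.13.

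The mixture of subunit mRNAs within a library does not depend on scaling between libraries. Reads of Gria1 per read of Gria2 were 1.19 and 0.979 with KIF5C, against 0.544 and 0.733 with IgG. The ratio was 1.71-fold higher with KIF5C (log2 difference 0.78), with no overlap. Such a ratio takes no account of base composition or length, and in the fit corrected for both the log2 fold changes were 0.52 for Gria1 and 0.15 for Gria2. The exact two-sided permutation test gave p = 0.333, the smallest it can give with 2 libraries against 2. Gria1 was also higher relative to Gria3, with 5.44 and 5.58 reads per read with KIF5C, against 2.30 and 3.02 with IgG. Relative to Gria4 it stood at 14.7 and 12.4 reads per read with KIF5C, against 6.07 and 6.85 with IgG. These ratios differed by 2.09-fold and 2.10-fold, again with no overlap and the same exact permutation p of 0.333. Gria4 per Gria3 was 0.37 and 0.449 with KIF5C, against 0.379 and 0.441 with IgG, and overlapped (ratio of the ratios 0.997, exact permutation p = 1). In all, 24 ratios and shares within libraries were compared. An adjusted value would lie no lower than 0.333 for any of them.

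As a share of all reads on the 4 subunits, Gria1 took 47.8% (95% Wilson interval 47.2% to 48.4%) and 43.8% (43.0% to 44.6%) in the KIF5C libraries. In the IgG libraries it took 29.1% (28.4% to 29.8%) and 35.2% (34.2% to 36.2%). The intervals cover counting error only. Gria1 had the highest share in KIF5C 1, lay just under Gria2 in KIF5C 2 and was well under Gria2 in both IgG libraries. The share of Gria2 was 40.1% and 44.8% with KIF5C, against 53.5% and 48.0% with IgG. Gria3 took 8.80% and 7.85% with KIF5C, against 12.6% and 11.7% with IgG, and Gria4 took 3.25% and 3.53%, against 4.79% and 5.14%. Each share was non-overlapping between the antibodies, with an exact permutation p of 0.333, the smallest possible. A higher share of Gria1 lowers the other 3 by construction. Scaled levels, another measure, did not overlap for 26.3% (KIF5C above) and 26.2% (KIF5C below) of all genes tested. The shares take no account of base composition or length.

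**Figure D2:**
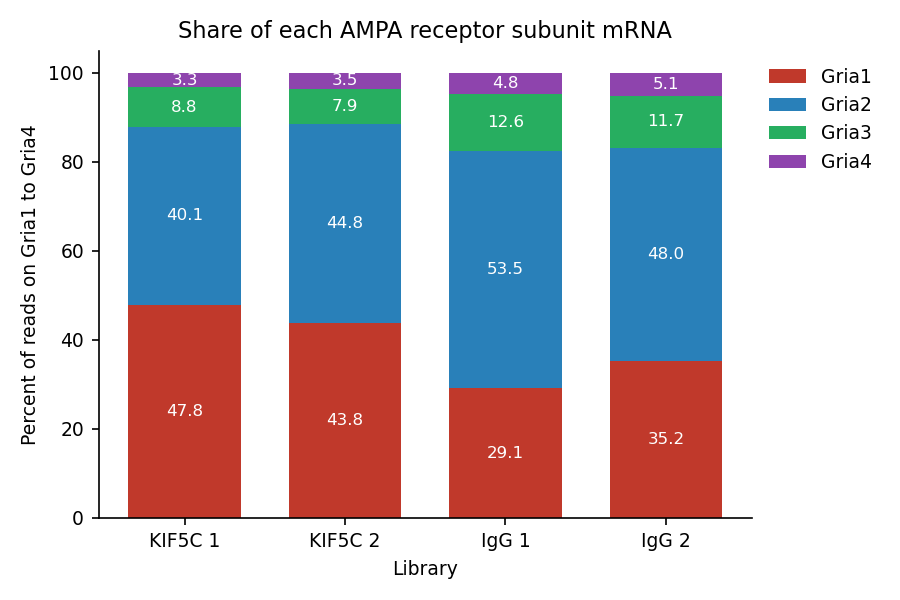
Percent of the reads on Gria1 to Gria4 that each gene took in each library, read counts as deposited. Gria1 made 47.8% and 43.8% in the KIF5C libraries and 29.1% and 35.2% in the IgG libraries.

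The PDZ proteins came at lower levels. Grip1 (chromosome 10, 119453830 to 120087261), whose protein links AMPA receptors to kinesin-1, had 504 and 410 reads with KIF5C, against 344 and 224 with IgG. That was 26.01 and 31.87 CPM with KIF5C, against 22.02 and 28.49 CPM with IgG, with overlap. Its log2 fold change was 0.20 (SE 0.23, 95% interval -0.28 to 0.68, adjusted p = 0.65 with edgeR). It was 0.02 without IgG replicate 1, 0.40 without IgG replicate 2 and 0.08 in the fit corrected for GC and length. Grip2 (chromosome 6, 91761509 to 91827250), the close relative of Grip1, was the rarest member, with 99 and 60 reads with KIF5C, against 68 and 25 with IgG.
At 5.11 and 4.66 CPM with KIF5C, against 4.35 and 3.18 CPM with IgG, Grip2 did not overlap but missed the threshold (log2 fold change 0.35, SE 0.32, adjusted p = 0.556 with edgeR). Counting error alone was 20.0% of the value in its thinnest library. In the fit corrected for GC and length its value was -0.03. Pick1 (chromosome 15, 79229173 to 79249484) encodes a PDZ and BAR domain protein that takes part in the removal of GluA2 from the surface. It measured 26.06 and 28.84 CPM with KIF5C, against 35.91 and 25.82 CPM with IgG, and overlapped (log2 fold change -0.18, SE 0.23, adjusted p = 0.692 with edgeR). Without IgG replicate 1 its log2 fold change was 0.09. Pick1 shares 1222 exonic bases with the annotated gene Gm49486 on the same strand, so its count may hold reads of both.

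All 3 TARP mRNAs had a positive log2 fold change, as had 47.6% of all genes tested, and both KIF5C libraries above both IgG libraries, as had 26.3% of all genes tested. None of the 3 passed the test. Cacng3 (chromosome 7, 122670492 to 122769393), the gene of TARP gamma-3, had 24.0 and 24.0 CPM with KIF5C, against 14.91 and 16.79 CPM with IgG. The log2 fold change was 0.60 or 1.52-fold (SE 0.22, 95% interval 0.14 to 1.07), with an adjusted p of 0.129 with edgeR, the smallest among the members. In the 4 pairings of a KIF5C with an IgG library its log2 difference lay between 0.52 and 0.69, the narrowest range of the 3 TARPs. The range for Gria1 was 0.37 to 0.98.

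Cacng8 (chromosome 7, 3390683 to 3415648) encodes TARP gamma-8, the TARP most characteristic of the hippocampus. It had 59.15 and 50.22 CPM with KIF5C, against 46.92 and 31.8 CPM with IgG, which is 0.47 on the log2 scale (SE 0.23, edgeR adjusted p = 0.254). The IgG libraries differed from each other more than the KIF5C libraries did. Without IgG replicate 1 the log2 fold change was 0.78 with an adjusted p of 0.0349, in a fit that called 6.56% of all genes higher, and without IgG replicate 2 it was 0.23. Cacng2 (chromosome 15, 77991748 to 78120028) encodes stargazin, TARP gamma-2, which is best known from the cerebellum. It measured 9.34 and 8.01 CPM with KIF5C, against 7.94 and 7.38 CPM with IgG, a difference of 0.18 on the log2 scale (SE 0.26, edgeR adjusted p = 0.728). In the fit corrected for GC and length it was -0.05. The antisense gene A730060N03Rik shares 323 exonic bases with Cacng2. It held 13 and 3 reads with KIF5C, against 2 and 1 with IgG, and whether the counting used strand is not given in the sources used here.

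**Figure D3:**
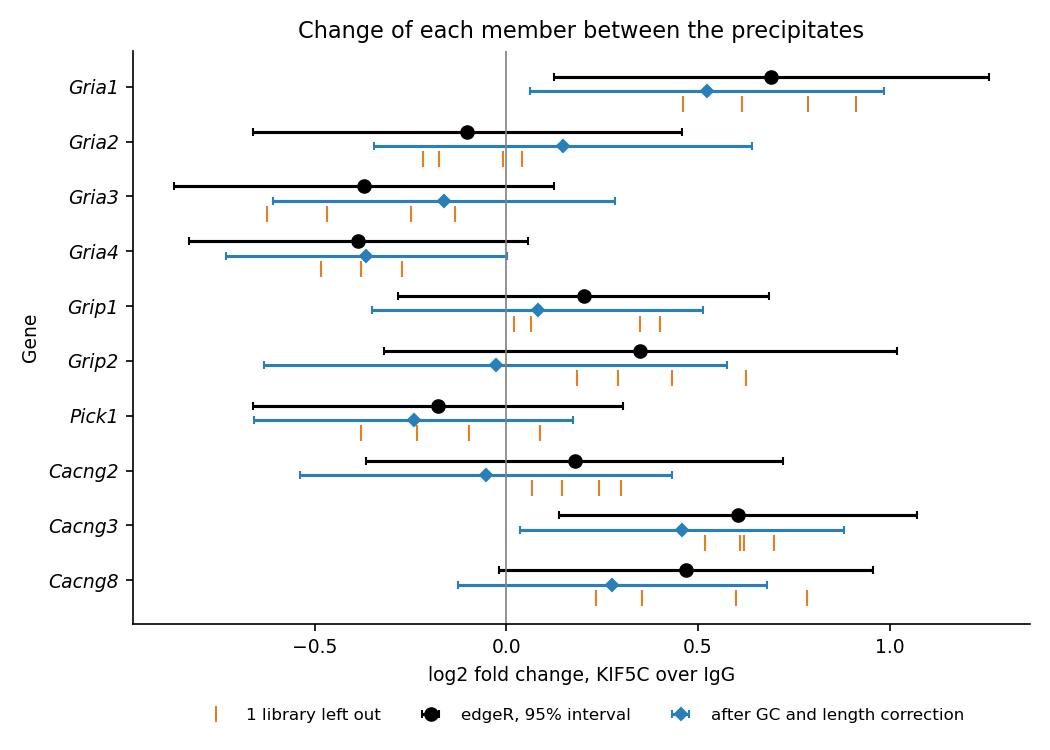
Log2 fold change of each member, KIF5C over IgG, with its 95% interval from edgeR (black), the same corrected for GC content and transcript length (blue), and the values with 1 library left out (orange ticks). The intervals of Gria1 and Cacng3 lie above 0 in both fits, before any adjustment for the number of genes.

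Base composition moved with these values. Across the 14274 genes tested that have a GC value, the Spearman correlation of GC content with the log2 fold change was 0.328, and over the 10 members it was 0.588 (points that share the same 4 libraries). Gria2, Gria3 and Gria4 had GC contents of 36.8%, 39.8% and 44.3% in the longest transcript, under the median of 49.7% over all genes tested, and Gria1 had 48.5%. Cacng3 and Cacng8 had 54.6% and 65.1%. With each library's trend on GC content and length taken out, the log2 fold change of Gria1 was 0.52 (SE 0.21, adjusted p = 0.185 with edgeR), that of Cacng3 was 0.46 (SE 0.20, adjusted p = 0.208) and that of Gria4 was -0.37 (SE 0.17, adjusted p = 0.246). Gria3 was at -0.16, Cacng8 at 0.28, Grip1 at 0.08 and Pick1 at -0.24 in that fit, and the first 3 of these lay nearer 0 than without the correction. The member median was 0.0268 in that fit. Gria1 and Cacng3 thus stayed the highest of the 10, and Gria4 the lowest.

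**Figure D4:**
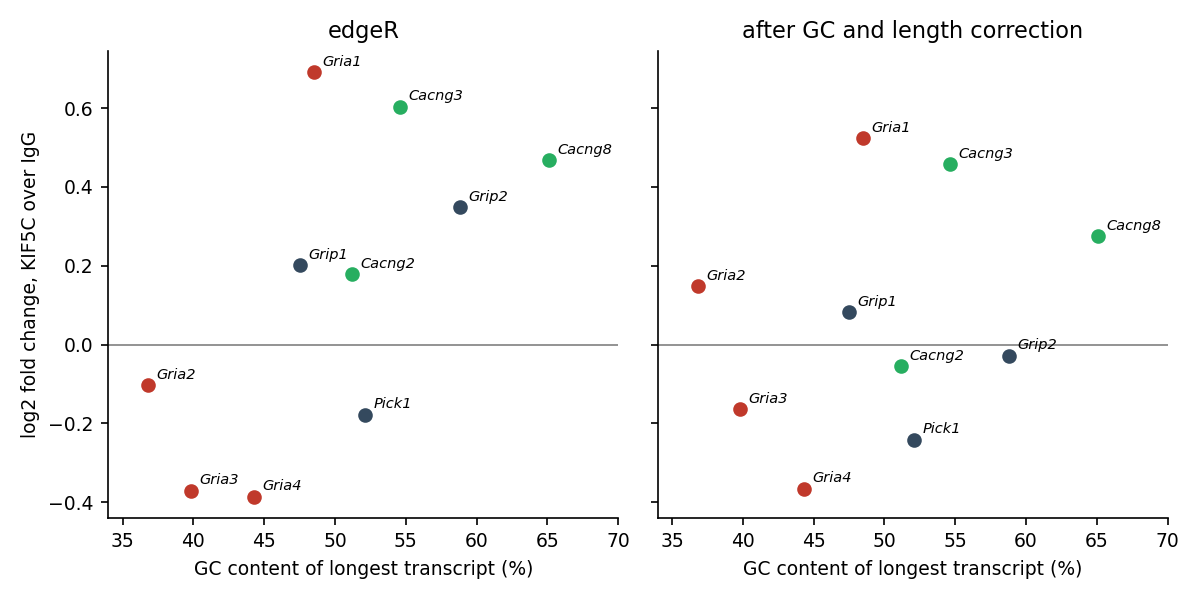
Log2 fold change of each member, KIF5C over IgG, against the GC content of its longest annotated transcript, from edgeR (left) and in the fit corrected for both GC and length (right); red marks subunits, green TARPs, dark blue GRIP and PICK1. Over the 10 members the Spearman correlation was 0.588 before and 0.273 after the correction.

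Levels between genes were compared per kilobase of the longest annotated transcript. Gria1 came first, at 105 ± 22.6 CPM per kilobase with KIF5C and 65.1 ± 5.21 with IgG (SD over 2 libraries each, as for the values that follow). Gria2 followed at 51.5 ± 3.98 CPM per kilobase with KIF5C and 55.3 ± 7.25 with IgG. Cacng8 (28.8 ± 3.33 with KIF5C and 20.8 ± 5.64 CPM per kilobase with IgG) and Gria3 (20.4 ± 4.76 with KIF5C and 26.4 ± 2.95 with IgG) came next. Cacng8 held place 3 with KIF5C, where both of its values lay above both of Gria3, while with IgG Gria3 held that place and the values of the pair overlapped. Pick1 came next, at 10.7 ± 0.767 CPM per kilobase with KIF5C and 12.1 ± 2.79 with IgG. With IgG its values (14.03 and 10.09) overlapped those of Gria4 (10.32 and 10.24). Gria4 and Cacng3 exchanged the places after Pick1. Gria4 stood at 7.86 ± 0.770 CPM per kilobase with KIF5C and 10.3 ± 0.0556 with IgG, and Cacng3 at 8.65 ± 0.00558 with KIF5C and 5.71 ± 0.477 with IgG. Grip1, Cacng2 and Grip2 came last in both precipitates, Grip2 at 0.885 ± 0.0570 with KIF5C and 0.682 ± 0.150 CPM per kilobase with IgG. The Gria2 annotation spans very different transcript lengths, 10371 nt for the longest and 3571.5 nt for the median. With the median transcript Gria2 came above Gria1, at 149.6 ± 11.6 CPM per kilobase with KIF5C and 160.6 ± 21.1 with IgG, so the order of these leading genes rests on the length used. Lower places moved too. By the median transcript Cacng3 held place 5 in both precipitates, above Pick1, and Grip1 held place 7 with KIF5C, above Gria4.

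Genes whose pattern over the 4 libraries was most like that of Cacng3, by the distance between centred log2 CPM values among 9251 genes, included Creb3l2 (distance 0.0231) and Ift52 (0.0408). Creb3l2 had 16.62 and 16.95 CPM with KIF5C, against 10.37 and 11.83 CPM with IgG, levels that follow from this choice. Neither gene was called (adjusted p = 0.14 for Creb3l2 and 0.149 for Ift52 with edgeR). With 4 libraries and 9251 genes close patterns are easily found, and the likeness shows no shared role.

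Other genes that serve AMPA receptors included 3 that rose, Prrt1, Shisa6 and Nptxr. With reads scaled by library totals none of the 3 was called, at log2 fold changes of 1.5, 1.15 and 1.15 (edgeR adjusted p = 1.0 each). Of 16 auxiliary and assembly genes, 15 were tested, 2 rose, 0 fell and 13 did not pass. With DESeq2 2 passed as well, both higher. The median log2 fold change of the 15 was 0.30, against -0.0271 for all genes tested, of which 3.33% were called higher. In the fit corrected for GC and length that median was 0.123. Prrt1, the gene of the receptor-associated protein SynDIG4, had 33.8 and 29.93 CPM with KIF5C, against 13.19 and 11.45 CPM with IgG. It rose by 1.36 on the log2 scale or 2.58-fold (SE 0.23, adjusted p = 0.00626 with edgeR). The call held in each fit with 1 library left out (adjusted p from 0.0012 to 0.0232) and in the fit corrected for GC and length (1.17, adjusted p = 0.00967). Shisa6, the gene of an auxiliary subunit that keeps receptors at the synapse, had 17.91 and 16.87 CPM with KIF5C, against 8.83 and 8.39 CPM with IgG. It rose by 1.01 (SE 0.23, adjusted p = 0.0241 with edgeR). It missed the threshold without KIF5C replicate 1 (0.97, adjusted p = 0.202), KIF5C replicate 2 (1.07, adjusted p = 0.0652) or IgG replicate 2 (0.99, adjusted p = 0.0653), and passed it in the fit corrected for GC and length (0.78, adjusted p = 0.0488).
Cacng4, a TARP gene outside the 10, had 8.26 and 6.45 CPM with KIF5C, against 2.75 and 4.71 CPM with IgG, and did not pass (1.04, SE 0.33, adjusted p = 0.078 with edgeR). Cnih2 and Cnih3, the cornichon genes, were at log2 fold changes of 0.23 and -0.39 and did not pass. Shisa7 was not tested, with 2 and 0 reads with KIF5C, against 3 and 0 with IgG.

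Of 22 genes for AMPA receptor trafficking partners, 21 were tested, 1 rose, 0 fell and 20 did not pass, where 3.33% of all genes tested were called higher. Their median log2 fold change was 0.11, and 0.0438 in the fit corrected for GC and length. DESeq2 called 2 higher, where it called 5.84% of the genes with an adjusted p. Nptxr, the neuronal pentraxin receptor gene, whose protein gathers AMPA receptors, had 465.1 and 356.8 CPM with KIF5C, against 234.6 and 164.1 CPM with IgG. It rose by 1.04 on the log2 scale or 2.06-fold (SE 0.27, adjusted p = 0.0387 with edgeR). It missed the threshold without KIF5C replicate 1 (0.85, adjusted p = 0.331) or IgG replicate 2 (0.82, adjusted p = 0.159), and in the fit corrected for GC and length (0.65, adjusted p = 0.0876). Gripap1, the gene of the GRIP-associated protein GRASP-1, had 37.37 and 29.7 CPM with KIF5C, against 17.15 and 22.51 CPM with IgG, and did not pass (0.77, SE 0.23, adjusted p = 0.0692 with edgeR). Ap2a1, a subunit gene of the endocytic adaptor AP-2, was at 0.69 (SE 0.26, adjusted p = 0.134). Ppfia3 was not tested, with 2 reads in KIF5C 1 and 0 in the other libraries.

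**Figure D5:**
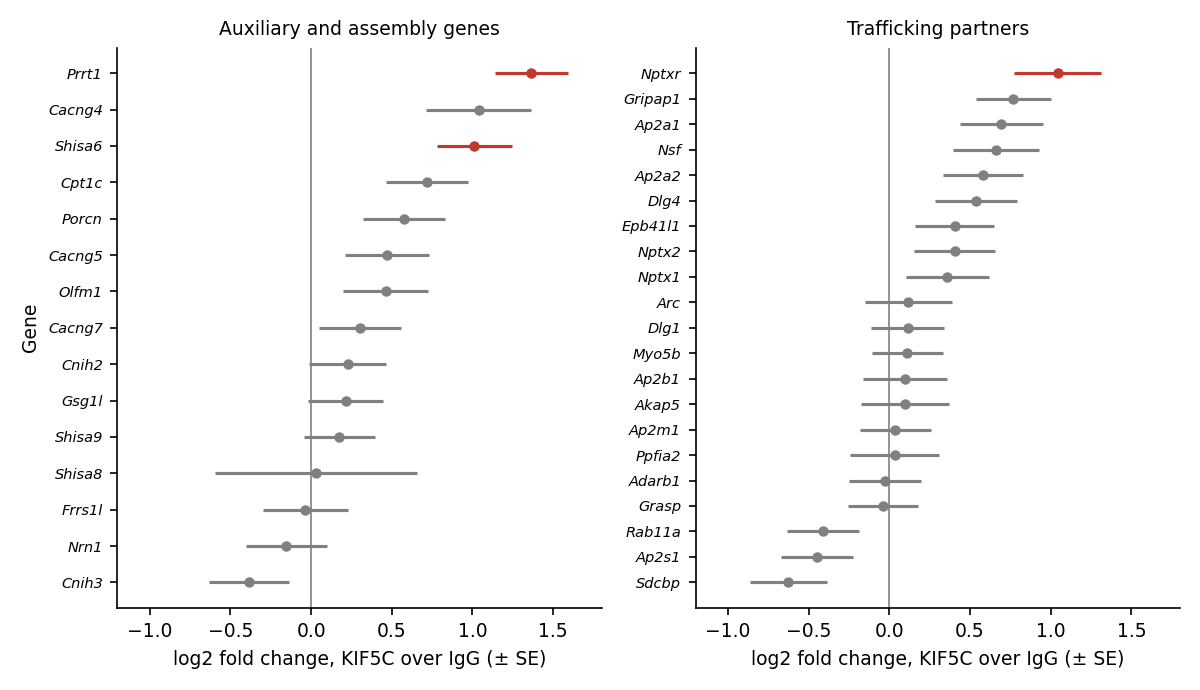
Log2 fold change, KIF5C over IgG, with its standard error for the 15 tested auxiliary and assembly genes (left) and the 21 tested trafficking partners (right). Genes past an adjusted p of 0.05 with edgeR are red; these are Prrt1, Shisa6 and Nptxr.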

How the data were processed

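RNA co-precipitated with a KIF5C or a control IgG antibody was sequenced as 2 libraries each. The authors deposited raw, whole-number read counts for each gene, and columns were matched to libraries by the sample descriptions. The submitters' processing notes name Salmon, DESeq and the build GRCm38, without version or setting. Annotation, strandedness and any rounding were not given in the sources used here. Counts are per gene, so flip and flop splice forms are not separated, and reads of similar transcripts may be shared between genes. The authors also deposited their own comparison: per the file headers, log2 fold changes with standard errors, p-values and adjusted p-values. Its log2 values are IgG over KIF5C, as their signs show, which are opposite to those of KIF5C over IgG from the counts for 98.3% of 14335 shared genes. Its linear fold ratio, its test statistic (a score) and its mean normalized counts (a signal), all deposited by the authors, were not used.

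Counts were tested with edgeR 4.0.16 (R 4.3.3; quasi-likelihood F test, TMM, filterByExpr with minimum count 10 and minimum total 15, group as the only term), with Benjamini-Hochberg adjustment over all genes and a threshold of 0.05. The SE is the size of the log2 fold change over the square root of F. Alternatives used DESeq2 1.42.0, limma-voom (limma 3.58.1), other scalings, filters and thresholds, a replicate block, offsets from splines (5 degrees of freedom each) on GC content and log length, and each library left out. With 1 library left out, the lone library is assumed to vary like the other group. The fits were tested on simulated counts with known changes. Of 37411 rows, 36218 matched a symbol and 589 an older symbol of GENCODE mouse release 21. 27 rows had a date as gene name and were tested but not named. A GC value was found for 99.4% of tested genes. Named genes were all members, from each other list the 3 smallest p-values and every called gene, and the 3 genes with a pattern nearest to the member with the smallest p, at a mean log2 CPM of at least 3, of which 1 is not reported here. Cnih2, Cnih3, Shisa7 and Ppfia3 were named after their values were seen. The members and lists were chosen with earlier results of these data known.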

Additional observations from a re-analysis of the deposited data

How the results depend on the processing

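There are 2 libraries per antibody, and the thinnest held 11059266 counts. The members' calls numbered 0 higher and 0 lower, against 1 higher with DESeq2 (Gria1, adjusted p = 0.0401) and 1 with a replicate block (Gria1, 0.68, adjusted p = 0.0322), and 0 to 1 with 1 library left out. No source says that a number marks a shared batch. The deviations of same-numbered libraries correlated at 0.142, and those of the other pairing at -0.142. With 2 libraries per antibody these values mirror each other by construction, so they cannot decide the question. TMM factors were 1.279 (KIF5C 1) and 1.248 (IgG 1), against 0.8806 (KIF5C 2) and 0.7117 (IgG 2). The mt-Rnr2 shares, in the same order, were 11.3% and 7.36%, against 31.9% and 32.2%. Whether a batch lies behind this was not tested. With the block, all genes had 1162 calls higher and 517 lower, the auxiliary genes 4 higher and the trafficking partners 5 higher and 1 lower; with the block and GC and length correction there were 275 lower in all and 2 partners higher. Of all genes, 478 were higher and 107 lower (81.7% higher). The counts were 902 and 261 with no low-count filter, 889 and 342 at an adjusted p of 0.1, and 1 and 4 (20% higher) with library totals, which shifted the median of all genes by 0.138. GC and length correction gave 364 and 127. With 1 library left out they ran from 116 to 978 higher and from 27 to 586 lower. The member median was 0.342 with library totals, 0.0268 with GC and length correction and 0.0253 with the block added. Auxiliary genes called higher numbered 0 with library totals, 4 with no filter and 1 to 4 with 1 library left out; their median was 0.427 with library totals, 0.123 with GC and length correction with or without the block, and 0.311 to 0.467 with 1 library left out. Partners called higher numbered 2 with DESeq2, with no filter and at an adjusted p of 0.1, 0 with library totals or GC and length correction, and 0 to 3 with 1 library left out; their median was 0.324 with library totals and 0.0706 to 0.283 with 1 library left out. Signs turned for Gria2 with library totals (0.0169, which is -0.0936 relative to the median of all genes), GC and length correction (0.148, and 0.173 with the block) and without IgG replicate 1 (0.04; -0.218 without IgG replicate 2). They also turned for Grip2 (-0.0279, and -0.0252 with the block), Cacng2 (-0.0539 and -0.0516) with that correction, and Pick1 without IgG replicate 1 (0.0884; -0.378 without IgG replicate 2). Gria1, Gria3, Gria4, Grip1, Cacng3 and Cacng8 kept their sign in each alternative run. The Gria1 to Gria2 log2 difference of 0.775 ran from 0.559 to 0.99 with 1 library left out. That range does not cover GC and length correction, where the 2 log2 fold changes lay closer together (0.524 for Gria1 and 0.148 for Gria2). The Gria1 share per kilobase was 15.1 percentage points higher with KIF5C, and 12.1 with the median transcript. The cause of each change was not tested.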
